A study of Bos indicus x Bos taurus with 17 samples.

Results

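The serpins are a family of proteins that share 1 fold, most of which inhibit serine proteases and a few of which carry hormones or act as chaperones. Gene rows named SERPIN followed by a clade letter from A to I and a number were taken from the gene counts of liver and skeletal muscle of bovine fetuses, which gave 37 of 21048 rows. The fetuses were Bos indicus × Bos taurus crosses of Nelore and Holstein cattle, collected at about day 105 of gestation and recorded as healthy. In the Control-AI group (n = 2) they were conceived by artificial insemination, and in the ART-Normal group (n = 4) by assisted reproductive technology in vitro, with a body weight similar to that of the controls. Each fetus gave 1 liver and 1 muscle library, so that 12 libraries from 6 fetuses were compared, and the labels' numbers are kept (ART-Normal 1 to 4, Control-AI 2 and 4). The weight of single fetuses and their sex were not used here. The design asks 3 questions of the family, namely which members differ between the tissues, which differ with the mode of conception within a tissue, and whether that difference is unequal in the tissues.

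As background, an inhibitory serpin presents an exposed loop that its target protease cuts, and the serpin then changes shape and holds the protease in a covalent complex that is cleared from the blood. The liver makes most of the serpins of plasma, which restrain coagulation, fibrinolysis, complement and leukocyte proteases. Clade A holds antitrypsin-like inhibitors and hormone carriers, clade B holds inhibitors that mainly stay inside cells, and clade H holds the collagen chaperone HSP47.

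Levels are counts scaled to library size (CPM), with all 12 libraries adjusted by the trimmed mean of M values (TMM), which sets aside the genes that differ most. These levels compare libraries and not genes, because only the whole gene span, not the transcript length, was available. Control values are given in the order Control-AI 2, Control-AI 4. Total counts per library ranged from 18454088 to 43339598 in liver and from 12433300 to 23578362 in muscle. A row passed the filter when every library of at least 1 group reached 5 CPM. By this filter 22 serpins passed in liver and 7 in muscle. Passing in both tissues were 6 of them, while 16 passed in liver alone and 1, SERPINB8, in muscle alone. The other 14 passed in neither.

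Control-AI 2 stood apart in both tissues. Principal components were taken within each tissue over the 12923 genes that passed in at least 1 group of either tissue. On the first, which held 47.2% of the variance in liver and 51.4% in muscle, the Control-AI 2 libraries lay at -64.0 and -64.6. The others lay between 4.57 and 24.8. The tissue labels were checked against defining markers. The summed level of 8 hepatocyte markers was 26763 to 43876 CPM in the ART-Normal livers. It was 49625 CPM in Control-AI 4 liver and 279633 CPM in Control-AI 2 liver. In muscle it was, in the same order, 24.9 to 57.8, 52.3 and 305 CPM. The sum of 9 skeletal muscle markers was at least 13955 CPM in each muscle library and at most 26.2 CPM in liver. Most of the hepatocyte sum in Control-AI 2 liver was made by AHSG, ALB and AFP. AHSG was at 146898 CPM there, against 3918 to 8197 CPM in the other 5 livers. In Control-AI 2 liver, ALB was at 73727 against 6833 to 12904 CPM and AFP at 40697 against 5639 to 12925 CPM. Its APOA2 and FGB levels lay above the others by less, at 5118 against at most 3550 CPM and 9182 against at most 8382 CPM. TTR, APOA1 and HNF4A, at 2199, 1556 and 256 CPM, lay within the range of the other livers. Its sum of 10 erythroid markers was also the highest, at 24354 CPM against 5511 to 6640 CPM. The part of these differences in the serpin values of that fetus was not tested, and results that rest on it are given with and without it. In bulk tissue, fewer cells of a type and less RNA per cell cannot be told apart.

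SERPINA1 encodes alpha-1-antitrypsin, the main plasma inhibitor of neutrophil elastase. It lies on chromosome 21 at 59075343 to 59087254 of the ARS-UCD1.2 build, on the minus strand. Its liver level was 5559, 3324, 6024 and 3778 CPM in ART-Normal 1 to 4, with 58108 and 8034 CPM in the controls. Both controls lay above the ART-Normal libraries, and Control-AI 2 was 10.5-fold above the median of the other 5. SERPINA1 took 32.5% to 51.4% of all serpin counts in those 5 livers and 88.5% in Control-AI 2. All serpins together made 1.07% to 1.55% of the counts of the 5 livers, 4.99% in Control-AI 2, and 0.0558% to 0.0712% in muscle.

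In muscle, SERPINA1 was at 0.69, 3.23, 6.36 and 2.85 CPM in ART-Normal 1 to 4, with 57.2 and 2.65 CPM in the controls. The fetus that was highest in liver was therefore also highest in muscle, although every muscle library lay far below every liver library. Per 1000 CPM in the liver of the same fetus, muscle held 0.123 (ART-Normal 1), 0.971 (ART-Normal 2), 1.06 (ART-Normal 3), 0.755 (ART-Normal 4), 0.985 (Control-AI 2) and 0.330 CPM (Control-AI 4). The corresponding values of albumin, a protein made by hepatocytes, were 0.127, 0.904, 0.936, 0.578, 1.09 and 0.433 CPM. Other hepatocyte markers lay further from SERPINA1. In the same order, AHSG had 0.278, 1.85, 3.07, 2.18, 0.990 and 0.916 CPM. For FGB the values were 0.114, 0.266, 0.246, 0.255, 1.23 and 0.203 CPM. SERPINA1 lay between the lowest and the highest of the 8 hepatocyte markers in all 6 fetuses, but that range was wide. Its upper end was APOA1, at 7.71 to 15.4 CPM, and its lower end in ART-Normal 1 was 0. Lying within it therefore says little about SERPINA1. Whether its muscle counts come from muscle cells was not tested.

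**Figure D1:**
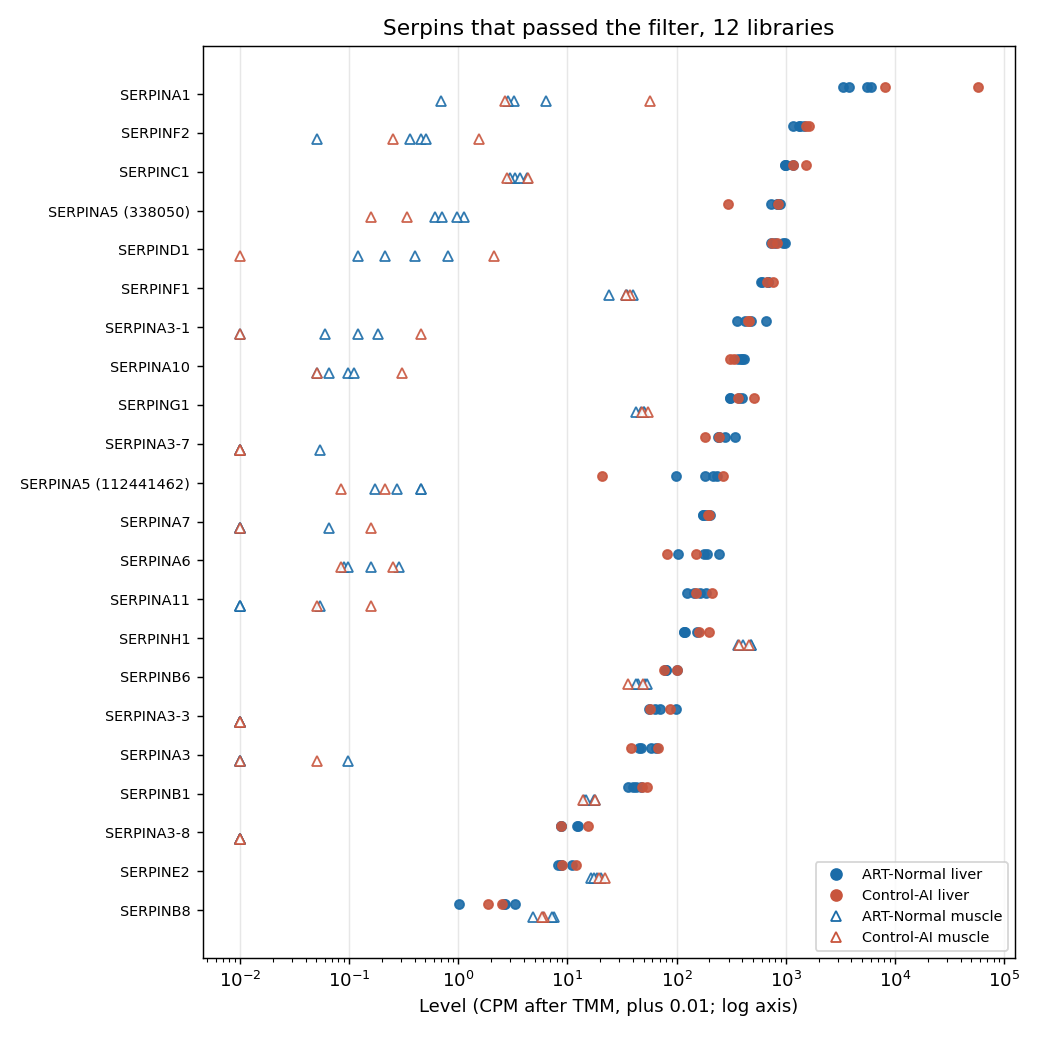
Level of each serpin described that passed the filter (horizontal axis, CPM after TMM plus 0.01, log axis) in 12 libraries, with circles for liver, triangles for muscle, blue for ART-Normal and red for Control-AI. Each row has separate liver and muscle values, and SERPINA1 in Control-AI 2 is the point at 58108 CPM.

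The first question was which serpins differ between the tissues. Of 12923 genes tested, 81.3% passed an adjusted p of 0.05 by edgeR's quasi-likelihood test with Benjamini-Hochberg adjustment, 40.6% higher in liver and 40.7% lower. All 23 serpins tested passed, with 20 higher in liver and 3 lower, and with adjusted p between 8.51e-14 and 1.18e-04. The groups did not overlap for any of the 23 (20 higher and 3 lower), against 64.4% of all genes (31.6% higher and 32.9% lower). A log2 difference of 5 or more was reached by 15 of the 23 serpins tested and by 4.64% of all genes tested. Many of these rows passed the filter through liver alone and so had to differ, and the counts describe the family without supporting a claim about it. The median log2 difference over the serpins tested was 10.20, or 9.97 with 2 rows that had no muscle count set to their lower bound, beside 0.01 over all genes tested. Without Control-AI 2 the counts were again 20 higher and 3 lower.

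**Figure D2:**
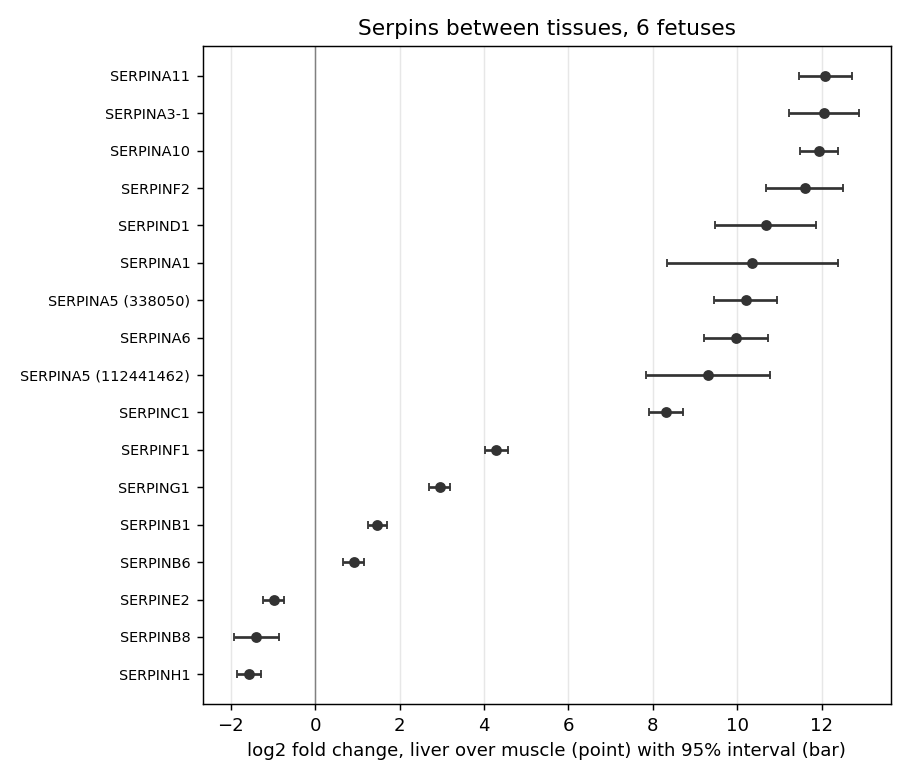
Log2 fold change of liver over muscle (horizontal axis; points, with 95% intervals as bars) for the serpins described with more than 3 counts over the muscle libraries, 6 fetuses. SERPINH1, SERPINB8 and SERPINE2 lie below 0, SERPINB6 and SERPINB1 at 0.91 and 1.48, and clade A, C, D and F2 members above 8.

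Coagulation is restrained by several of these proteins. SERPINC1 encodes antithrombin, the inhibitor of thrombin and factor Xa (chromosome 16, 55267228 to 55277841). It was at 1153, 994, 975 and 997 CPM in the livers of ART-Normal 1 to 4, with 1534 and 1160 CPM in those of the controls. In muscle it ranged from 2.81 to 4.35 CPM. Liver exceeded muscle by 8.32 on the log2 scale (SE 0.19). SERPINC1 varied little among the muscle libraries, by comparison with the SERPINA1 range of 0.69 to 57.2 CPM. SERPIND1, heparin cofactor II, which overlaps PI4KA on the other strand, had 736, 799, 987 and 952 CPM in ART-Normal livers and 831 and 753 CPM in the controls. Its muscle values were 0.20, 0.11, 0.39 and 0.80 CPM in ART-Normal, with 2.14 and 0 CPM in the controls. SERPINA10, which inhibits factor Xa with protein Z, ranged from 312 to 411 CPM in liver and from 0.04 to 0.29 CPM in muscle. The log2 difference was 10.67 (SE 0.56) for SERPIND1 and 11.93 (SE 0.21) for SERPINA10.

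SERPINA5 is the name of the protein C inhibitor gene, and 2 rows bear it. The files do not settle which of them is that gene in cattle. The row with gene identifier 338050 lies on the minus strand at the far end of the cluster on chromosome 21. The row 112441462 lies on the plus strand, 370 to 382 kb into the 555 kb of the cluster. Row 338050 had 837, 735, 888 and 852 CPM in ART-Normal livers and 294 and 847 CPM in the controls. Row 112441462 had 182, 217, 235 and 98.9 CPM in ART-Normal livers and 20.6 and 265 CPM in the controls. Control-AI 2 was thus lowest on both rows, while Control-AI 4 lay inside or just above the ART-Normal range. Muscle held at most 1.11 CPM of row 338050 and 0.45 CPM of row 112441462. The log2 difference was 10.20 (SE 0.34) and 9.31 (SE 0.68).

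Fibrinolysis is controlled at the level of plasmin and of its activators. SERPINF2, alpha-2-antiplasmin, was at 1158, 1341, 1316 and 1478 CPM in ART-Normal livers and at 1615 and 1535 CPM in the controls, against 0.04 to 1.55 CPM in muscle (log2 difference 11.60, SE 0.42). Every liver library lay above every muscle library.

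SERPINE2, protease nexin 1, inhibits thrombin and the plasminogen activators at cell surfaces and went the other way. It had 20.2, 18.5, 16.3 and 17.7 CPM in ART-Normal muscle and 19.5 and 21.9 CPM in the controls. Liver held 8.77, 8.11, 10.96 and 8.64 CPM in ART-Normal, with 11.97 and 8.99 CPM in the controls. Every muscle library lay above every liver library, by 0.98 on the log2 scale (-0.98 for liver over muscle, SE 0.12). The plasminogen activators that SERPINE2 inhibits were also lower in liver, with log2 differences of -1.59 for PLAU and -1.90 for PLAT. Thrombin (F2), which it inhibits too, went the other way and was higher in liver by 5.13. Plasminogen (PLG) was higher by 11.93.

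SERPING1 encodes the C1 inhibitor, which restrains the complement proteases C1r and C1s and plasma kallikrein. It was at 309, 311, 373 and 397 CPM in ART-Normal livers and 514 and 364 CPM in the controls. In muscle it was at 50.6, 47.5, 42.4 and 50.1 CPM in ART-Normal, with 54.9 and 48.6 CPM in the controls. It was thus well measured in both tissues, with a log2 difference of 2.95 (SE 0.11). Its targets were higher in liver as well, by 2.31 for C1S and 1.32 for C1R, while plasma kallikrein (KLKB1) had 1 count over the 6 muscle libraries, for a ratio of 10445 with a counting interval of 1874 to 412569.

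The remaining clade A members of liver include hormone carriers. SERPINA6, the corticosteroid-binding globulin, had 192, 104, 245 and 178 CPM in ART-Normal livers and 81.8 and 150 CPM in the controls. SERPINA7 on the X chromosome, the thyroxine-binding globulin, was nearly level over the 6 livers, from 173 to 201 CPM. SERPINA6 had at most 0.28 CPM in muscle (log2 difference 9.97, SE 0.35). SERPINA7 had 3 counts in all over the muscle libraries, so that its liver-to-muscle ratio was 7633 with a 95% counting interval of 2612 to 37017. SERPINA11, a secreted clade A member, was at 124 to 212 CPM in liver with 4 counts over muscle (log2 difference 12.08, SE 0.29). AGT, which has a serpin fold under another name and is the precursor of the angiotensins, differed by 12.09 (SE 0.31).

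The SERPINA3 rows are cattle relatives of alpha-1-antichymotrypsin, an inhibitor of neutrophil cathepsin G and of chymases. They are near copies of each other, and how shared reads were assigned is not given in the sources used here, so the split of counts among them is uncertain. SERPINA3-1 had 354 to 657 CPM in liver, SERPINA3-7 183 to 342 CPM, SERPINA3-3 55.7 to 98.7 CPM, SERPINA3 38.6 to 68.0 CPM and SERPINA3-8 8.72 to 15.5 CPM. Control-AI 2 was inside the range of the other livers for SERPINA3-1 and SERPINA3-3, lowest for SERPINA3-7 and highest for SERPINA3 and SERPINA3-8. Muscle had almost none of them. SERPINA3-8 and SERPINA3-3 had no count in muscle, and with a floor of 3 counts over the 6 muscle libraries liver was at least 455-fold and at least 2896-fold higher. SERPINA3 had 3 muscle counts, for a ratio of 2124 with a counting interval of 726 to 10300. SERPINA3-7 had 1, for a ratio of 31821 with an interval of 5711 to 1256910. SERPINA3-1, with 13 muscle counts, differed by 12.06 on the log2 scale (SE 0.39). Intervals and floors cover counting error only.

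**Figure D3:**
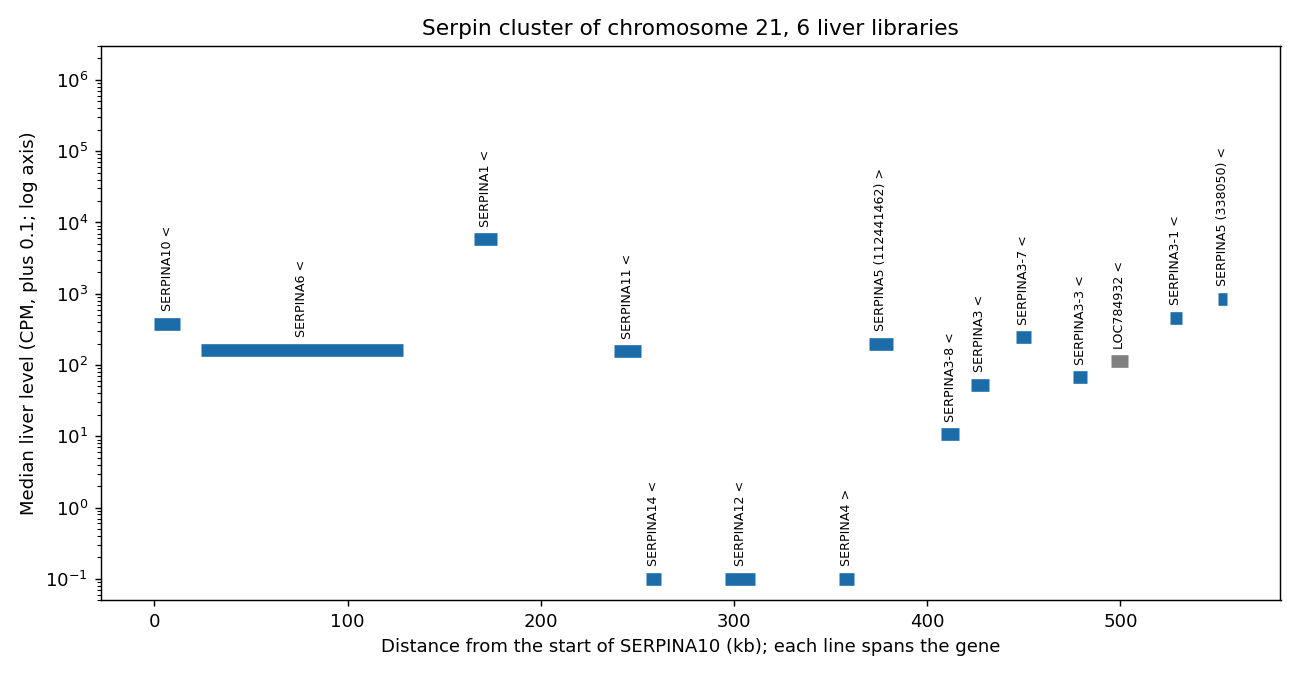
Median level over the 6 liver libraries (vertical axis, CPM plus 0.1, log axis) of the 15 rows of the chromosome 21 cluster by distance from the start of SERPINA10 (horizontal axis, kb). Each line spans a gene, > and < mark the plus and minus strand, and LOC784932 in grey is not named as a serpin; SERPINA14, SERPINA12 and SERPINA4 lie at the bottom between rows above 100 CPM.

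Position was not used to choose the members. The 37 rows lay on 12 chromosomes and 1 unplaced scaffold, with 14 on chromosome 21, 7 on chromosome 24 and 3 on chromosome 23. The 14 rows of chromosome 21 were all of clade A and lay within 555 kb, together with 1 row of another name, LOC784932, whose median liver level was 112 CPM. Of these 14 serpins, 11 passed in liver and none in muscle. The 3 that did not, SERPINA14, SERPINA12 and SERPINA4, stood next to each other between SERPINA11 and SERPINA5 (112441462) and had 0, 2 and 0 counts over all livers. Neighbours did not share the pattern of Control-AI 2. SERPINA1 was 10.5-fold above the median of the other livers there, SERPINA6 2.17-fold below and SERPINA11 within the 0.74- to 1.76-fold range of most serpins. The clade B rows of chromosome 23 (SERPINB6, SERPINB9 and SERPINB1) had counts in both tissues, while 6 of the 7 on chromosome 24 stayed under 1 CPM in every library.

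Of the serpins that are no plasma inhibitors, SERPINH1 encodes HSP47, a chaperone of the endoplasmic reticulum that binds newly made procollagen (chromosome 15, 54738093 to 54748404). It was at 407, 362, 476 and 483 CPM in ART-Normal muscle and 372 and 459 CPM in the controls. Liver values were 120, 116, 154 and 116 CPM in ART-Normal, with 162 and 197 CPM in the controls. All muscle libraries lay above all liver libraries, and liver over muscle was -1.57 on the log2 scale (SE 0.13). Over all genes tested, 40.7% were lower in liver and 40.6% higher. Of 25 tested genes of collagen and its synthesis, 22 were lower in liver, as SERPINH1 was, and 3 higher, with a median of -3.05. The largest differences were those of COL1A2 (-5.89), COL1A1 (-5.27), COL6A1 (-4.73), P4HA3 (-4.49) and COL3A1 (-4.15). The 3 that were higher in liver were P4HB (1.85), PPIB (0.82) and PLOD3 (0.37); P4HB and PPIB act on many proteins besides collagen. The sum of 7 connective tissue markers, among them collagens of the same list, was 580 to 1205 CPM in liver and 21650 to 27756 CPM in muscle. Its part in the SERPINH1 difference was not tested.

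SERPINF1 encodes pigment epithelium-derived factor, a secreted protein that inhibits no protease. It had 605, 588, 682 and 695 CPM in ART-Normal livers and 766 and 671 CPM in the controls, against 23.99 to 40.3 CPM in muscle (log2 difference 4.29, SE 0.13). It overlaps SMYD4 on the other strand and lies beside SERPINF2 on chromosome 19, at 22848081 to 22859853, where SERPINF2 ends at 22840457. Muscle held SERPINF1 in every library and almost no SERPINF2.

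The clade B members act inside cells. SERPINB6, an inhibitor of trypsin-like proteases and cathepsin G, was at 76.1 to 102 CPM in liver and 36.1 to 53.3 CPM in muscle (log2 difference 0.91, SE 0.11). SERPINB1, an inhibitor of elastase found in leukocytes, was at 35.6 to 53.3 CPM in liver and 14.0 to 18.0 CPM in muscle (1.48, SE 0.11). Both were higher in liver, without overlap. SERPINB8, a furin inhibitor, had 7.47, 5.96, 4.87 and 7.16 CPM in ART-Normal muscle and 6.12 and 5.87 CPM in the controls, above its liver range of 1.02 to 3.32 CPM (-1.39, SE 0.24). The summed level of 5 neutrophil markers in the table was 112 to 231 CPM in liver and at most 0.66 CPM in muscle, and that of 6 macrophage markers 354 to 516 CPM and 65.0 to 96.7 CPM. Their part in the SERPINB1 and SERPINB6 values was not tested.

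Of the 14 rows that passed in neither tissue, 4 reached 1 CPM in a library. SERPINB9, the granzyme B inhibitor, was at 3.85 to 6.63 CPM in liver and 2.34 to 4.28 CPM in muscle, and these ranges overlapped. SERPINI1, neuroserpin, was at 2.97 to 4.61 CPM in liver and 0.73 to 1.71 CPM in muscle. SERPINB4 had 1.13 to 4.32 CPM in liver and no count in muscle. SERPINE3 had 6.41, 2.95, 4.39 and 3.81 CPM in ART-Normal livers and 10.8 and 1.80 CPM in the controls. The other 10 stayed under 1 CPM in every library, and SERPINA14, SERPINA4, SERPINB11 and SERPINB7 had 0 counts in all 12, which allows up to 0.0106 CPM over the libraries together. SERPINB12, an epithelial member, had 17 counts over muscle and none over liver.

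Serpins act on proteases and with cofactors, which were taken as lists. Over all genes tested, 40.6% were higher in liver and 40.7% lower. Of 33 proteases listed as targets or related proteases, 24 were tested, 20 were higher in liver and 3 lower, with a median log2 difference of 5.001. The largest fitted differences were those of KLKB1, with its 1 muscle count, F9 (12.38), PLG (11.93), PROC (11.24) and F11 (10.50), all proteases of coagulation or fibrinolysis. Thrombin (F2) and factor X (F10) differed by 5.13 and 7.86. The 3 that were lower were PLAT, PLAU and the collagen-degrading cathepsin CTSK. Of 15 tested cofactors, receptors and clearance genes, 7 were higher and 5 lower, not far from the shares over all genes, and the median was 0.11. Vitronectin (VTN), an adhesive plasma protein, led with 12.34, followed by the receptors STAB2 (7.66) and LRP2 (6.21), the protein C cofactor PROS1 (4.26) and the heparan sulfate proteoglycan GPC1 (-2.79). LRP1, which clears serpin-protease complexes, differed by 0.03 and did not pass. Of 16 rows for handling of secreted proteins in the endoplasmic reticulum, 15 were higher in liver with a median of 1.32, and of 12 liver transcription factors all 12 were higher with a median of 9.18. The serpins tested had a median of 10.20 beside these. Only 2 of the 12 transcription factors and 12 of the 24 proteases also passed the filter in muscle. The others passed through liver alone, so that their higher liver level was largely set by the filter. These counts describe the lists without supporting a claim about them.

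The second question was whether serpins differ between ART-Normal and Control-AI fetuses. In liver 0 of 11304 genes (0%) and 0 of 22 serpins passed an adjusted p of 0.05 by edgeR's quasi-likelihood test, against 89 genes by its likelihood ratio test and 56 by DESeq2, each with 1 serpin, SERPINA1. Without Control-AI 2 it passed 0 serpins and 1 gene, and without Control-AI 4, which leaves Control-AI 2 as the only control, 3 serpins and 830 genes. With all fetuses and an unadjusted p under 0.05 there were 948 genes (8.39%) and 3 serpins. For 18.5% of all genes the groups did not overlap, and this held for 6 of the 22 serpins. The number lower in all ART-Normal livers was 5 (SERPINA1, SERPINH1, SERPINC1, SERPINF2 and SERPINB1, against 8.70% of all genes), and SERPINA10 was higher (9.84% of all genes).

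**Figure D4:**
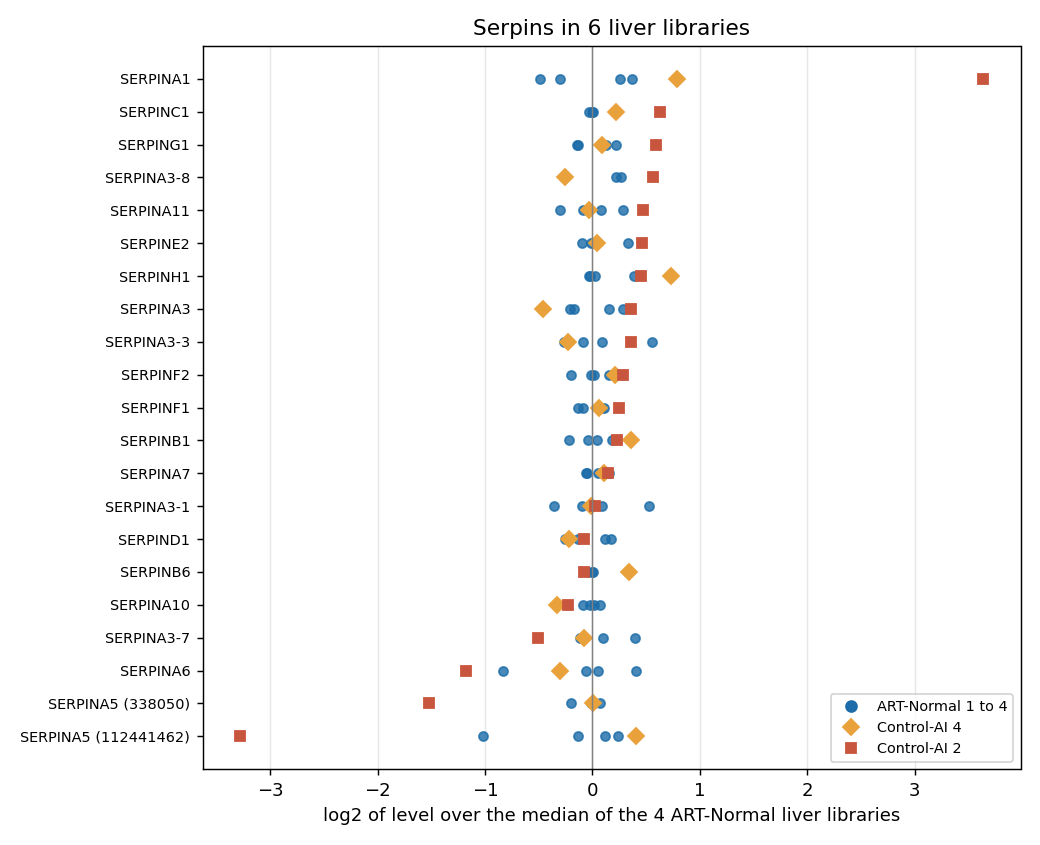
Log2 of each liver level over the median of the 4 ART-Normal livers (horizontal axis) for the serpins described that passed in liver, with circles for ART-Normal 1 to 4, diamonds for Control-AI 4 and squares for Control-AI 2. SERPINA1 and both SERPINA5 rows are the widest apart, in opposite directions, and the widest distance is that of Control-AI 2. For SERPINA1, Control-AI 4 also lies above the ART-Normal livers, at 0.78.

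For SERPINA1 the difference of ART-Normal from Control-AI was -2.85 on the log2 scale (SE 0.59, 95% interval -4.18 to -1.52), with an adjusted p of 0.354 by edgeR's quasi-likelihood test. The call depended on the tool. The adjusted p was 4.96e-04 by edgeR's likelihood ratio test, the kind of test that the study used, and 0.0296 by DESeq2. Over all alternatives it ranged from 1.47e-05 to 0.999. Without Control-AI 2 the difference was -0.78, and without Control-AI 4 it was -3.66, so that its size was set largely by 1 library. AHSG, ALB and AFP stood far apart in that library too, while TTR, APOA1 and HNF4A lay within the range of the others, and their part in the difference was not tested.

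Both rows of SERPINA5 turned with the same library. For row 112441462 the difference was 0.35 (SE 0.71), but -0.52 without Control-AI 2 and 3.13 without Control-AI 4. For row 338050 it was 0.53 (SE 0.34), and then -0.03 and 1.47. Among all 11304 genes that passed in liver, 44 (0.389%) were at least 5-fold higher in Control-AI 2 than the median of the others, SERPINA1 among them, and 31 (0.274%) at least 5-fold lower, SERPINA5 (112441462) among them. The 5-fold limit was chosen after the values were seen.

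For SERPINH1 the liver difference was -0.52 (SE 0.15, adjusted p of 0.503 by edgeR's quasi-likelihood test), -0.63 without Control-AI 2 and -0.38 without Control-AI 4. SERPINC1 differed by -0.41 (SE 0.18, adjusted p of 0.589 by the same edgeR test) and by -0.17 without Control-AI 2 and -0.60 without Control-AI 4. Neither passed the adjusted threshold. For the rest, 95% intervals bound what could have been missed. That of SERPINA7 ran from -0.40 to 0.16, that of SERPINF1 from -0.54 to 0.18, and that of SERPINA10 from -0.06 to 0.57. Others were wider, such as SERPINA5 (112441462) from -1.25 to 1.95, SERPINA3-8 from -0.83 to 0.43 and SERPING1 from -0.78 to 0.07. SERPINA6 differed by 0.62 with the wide interval of -0.11 to 1.35, and by 0.27 without Control-AI 2 and 1.11 without Control-AI 4.

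In muscle 1 of 11695 genes (0.00855%) and 0 of 7 serpins passed the same edgeR test, against 120 genes by its likelihood ratio test and 106 by DESeq2, with no serpin among them. Without Control-AI 4 it passed 2 serpins and 1327 genes, and without Control-AI 2, 0 serpins and 5 genes. With all fetuses no serpin reached an unadjusted p of 0.05, against 9.19% of all genes, and none had groups that did not overlap (15.5% of all genes). The log2 differences of the 7 lay between -0.21 for SERPINE2 (95% interval -0.56 to 0.14) and 0.14 for SERPINB6 (-0.23 to 0.50). SERPINH1 differed by 0.04 (-0.32 to 0.40). Among the lists of proteases, cofactors, collagen, endoplasmic reticulum and transcription factor genes, no gene passed in either tissue by edgeR's quasi-likelihood test.

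The third question was whether the effect of conception was unequal in the tissues. By the interaction term of the model over 12 libraries, 0 of 12923 genes (0%) and 0 of 23 serpins passed edgeR's quasi-likelihood test, against 98 genes by the likelihood ratio test and 37 by DESeq2, with no serpin among them. Without Control-AI 4 there were 232 genes and again no serpin. With all fetuses, at an unadjusted p under 0.05 there were 711 genes (5.50%) and 1 serpin, SERPINH1, whose difference in liver minus that in muscle was -0.54 on the log2 scale (SE 0.24, 95% interval -1.07 to -0.01, adjusted p of 0.894 by edgeR's quasi-likelihood test).

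Opposite another gene on the other strand lie 3 of the described serpins, and there Control-AI 2 differed once more. SERPINF1 lies within SMYD4, which had 29.3 to 34.5 CPM in the other 5 livers and 791 CPM in Control-AI 2, close to the 766 CPM of SERPINF1 in that library. In muscle, SMYD4 had 15.3 to 16.2 CPM and 48.6 CPM in Control-AI 2, where SERPINF1 had 37.3 CPM. SERPIND1 lies within PI4KA, which had 91.6 to 132 CPM in the other livers and 981 CPM in Control-AI 2, where SERPIND1 had 831 CPM. In the other 5 livers SERPINF1 and SERPIND1 were about as high, at 588 to 695 CPM and 736 to 987 CPM, so that SMYD4 and PI4KA came near the serpin's level in Control-AI 2 alone of the livers. In muscle, where SERPIND1 was near 0, PI4KA was at 64.7 to 86.2 CPM in all libraries. SERPINE3 shares 17291 bases with INTS6, and here the serpin itself was highest in Control-AI 2. It had 5.31 CPM in that muscle library against 0.10 to 0.53 CPM in the others, while INTS6 had 53.4 to 72.2 CPM in muscle. The libraries were strand-specific, but the strand setting of the counting is not given in the sources used here, and its part was not tested.

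**Figure D5:**
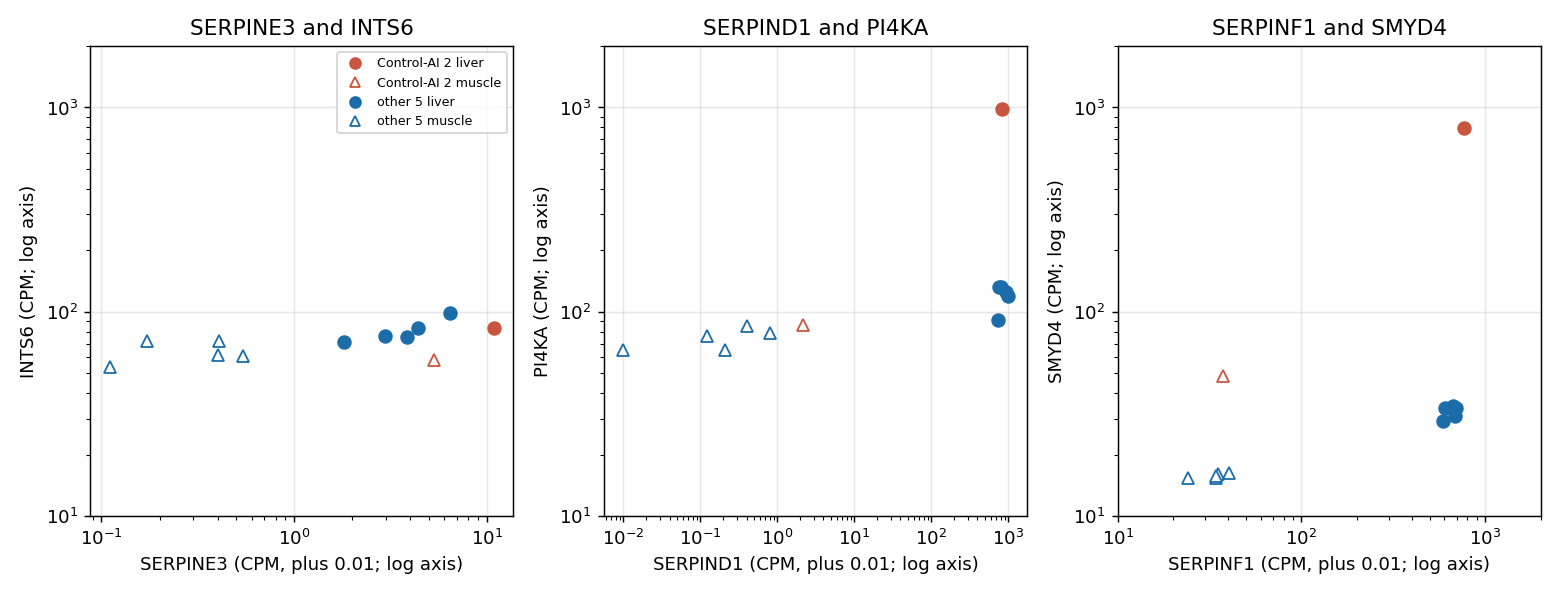
Level of a serpin (horizontal axis, CPM plus 0.01, log axis) against that of the gene on the opposite strand (vertical axis, CPM, log axis) for SERPINE3 and INTS6, SERPIND1 and PI4KA, and SERPINF1 and SMYD4. Circles are liver and triangles muscle; Control-AI 2 in red lies apart at 981 CPM of PI4KA and 791 CPM of SMYD4.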

How the data were processed

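Total RNA was extracted with TRIzol, poly(A) RNA was enriched, and strand-specific libraries were sequenced as paired 150-base reads. For liver and for muscle the authors deposited a table of raw, unnormalized counts by gene, over gene spans of ARS-UCD1.2. The submitters' processing notes name FastQC 0.11.7, HISAT2 2.1.0, SAMtools, Cufflinks, featureCounts and edgeR 3.24.3, without roles, and the strand setting of the counting is not given in the sources used here. Of the count columns, 14 matched no sample used here and were left out. Tables of the authors' own comparisons (fold changes, p-values) were not used. Kidney was not analysed here.

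Counts were tested with edgeR 4.0.16 (R 4.3.3; TMM, quasi-likelihood) after a filter of at least 5 CPM, by total library size, in all libraries of 1 group. The study's methods give a like filter for its groups, TMM and edgeR's likelihood ratio test, which was run here as an alternative. The test over all genes had a Benjamini-Hochberg adjusted p of 0.05 as threshold. Tissues were compared with conception as a covariate, and conception within each tissue and as an interaction. Each standard error was derived from the log2 fold change with the F statistic. Fits were tested on simulated counts, drawn independently for each library without a fetus effect or a library apart like Control-AI 2. That test cannot show how the fits behave under either. DESeq2 1.42.0 was an alternative, and figures were drawn with Matplotlib 3.10.9. Liver and muscle came from the same fetus per the labels, which pairs them. Their deviations from the group means correlated at 0.04 to 0.36 over 12923 genes. The 0.36 is the value of both controls, whose deviations from a mean of 2 mirror each other. Adding the fetus as a block called 23 serpins, 20 higher in liver and 3 lower. The main tissue and interaction fits had no term for the fetus. Their standard errors and p-values treat the 12 libraries as independent and measure the spread between libraries. The p-values of conception within a tissue measure the spread between these fetuses.

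Serpins that passed the filter, and others that reached 1 CPM, are described by name, except 1 that is not reported here and enters the counts only. Of each list up to 5 genes with the largest tissue difference are named, and known partners of a serpin may stand beside it. The single hepatocyte markers, LOC784932, SMYD4, PI4KA, INTS6 and SERPINB12 were added after their values were seen, as were the genes named as lists' exceptions. The members and lists were chosen with earlier results of these data known. Other settings tried were scaling, filters, tests, groups alone and leaving out each fetus.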

Additional observations from a re-analysis of the deposited data

Results flagged for a closer look

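Of 29 groups of 4 ART-Normal libraries, 3 held a value far from the other 3 by Dixon's test, which chance does in about 1 of 20 groups. SERPINH1 was at 154 CPM in the liver of ART-Normal 3, with the nearest value at 120 CPM. SERPINC1 was at 1153 CPM in the liver of ART-Normal 1, with the nearest at 997 CPM. SERPINB6 was at 101 CPM in the liver of ART-Normal 2, with the nearest at 80.8 CPM. The 3 values belong to 3 different fetuses. Groups of 2 controls could not be examined in this way.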

How the results depend on the processing

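The serpins whose log2 difference between tissues is named in the report kept its direction and side of the threshold under each other setting run on them. With at least 10 counts in every library, 12 serpins were called between tissues (9 higher in liver, 3 lower), as fewer were tested. With the fetus as a replicate block, 23 serpins were called between tissues and 0 in the interaction.

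For conception in liver, 1 serpin was called by the likelihood ratio test and 1 by DESeq2, and 0 to 3 when a fetus was left out. For all genes in liver the count was 6 with library size alone, 89 by the likelihood ratio test, 56 by DESeq2, 2 with ART-Normal 1 to 3, and 0 to 830 when a fetus was left out. In muscle it was 120 by the likelihood ratio test, 106 by DESeq2, 0 with ART-Normal 1 to 3, and 0 to 1327 when a fetus was left out, with 0 to 2 serpins. In the interaction it was 98 and 37 by those tests and 0 to 232 when a fetus was left out. The highest counts were those without Control-AI 4, which leaves Control-AI 2 as the only control, assumed to vary like the other fetuses. For SERPINA5, leaving out a fetus gave -0.52 to 3.13 (112441462) and -0.026 to 1.47 (338050), negative without Control-AI 2. The cause was not tested. The labels' numbers do not pair ART-Normal with Control-AI fetuses (correlations of deviations -0.13 to 0.01), and with them as a replicate block 6 genes were called in liver and 90 in muscle. With 2 controls, 1 of them apart, and many serpins at few muscle counts, small effects of conception were not detectable.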
